A study of Mus musculus with 24 samples.

Results

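Fat from mice whose genotype targets the clock gene Bmal1 in the brain's pacemaker was compared with control fat. The comparison was at a single time of day, the middle of the subjective day, circadian time 7 (CT7). The members were the 6 arrays of a series of 24 that the titles place at CT7, 3 from MUT and 3 from CON mice, and every gene that an array probe set names alone. There were 22180 such genes, of which 15526 passed a filter on low signal and were tested. Each array held RNA of the epididymal fat (eWAT, white adipose tissue attached to the epididymis) of 1 mouse. CON mice were Syt10-Cre/Cre x Bmal1 +/-, and MUT mice were Syt10-Cre/Cre x Bmal1 flox/-. Both groups therefore carried the Cre driver on both alleles and a null allele of Bmal1 (gene symbol Arntl) in every cell, so that the controls were themselves heterozygous. The second Bmal1 allele was wild type in CON and floxed in MUT, and Cre under the control of Syt10, a gene active in the suprachiasmatic nucleus (SCN), removes it where the driver is active. All mice had 2 weeks of light and dark before constant darkness and were killed on its second day. The labels give no age, sex or genetic background. One label, the source, gives mediobasal hypothalamus as the tissue, against the titles and the treatment text. By signal level the 10 tested markers of adipocytes had a median percentile of 99.6 among genes. Of 13 markers of hypothalamus and neurons, 8 were tested and 4 lay below the signal filter, and together these had a median percentile of 39.3.

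The SCN is the pacemaker that sets the time of clocks in other organs, and fat cells have such a clock of their own. In that clock the activators BMAL1 and CLOCK switch on the genes of their own repressors through DNA motifs called E-boxes, and the repressors then silence them. Further motifs, the D-box and the RORE, bind the DBP family of output factors and the ROR and REV-ERB receptors, and spread the rhythm to genes of lipid, glucose and hormone metabolism.

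At CT7 clock genes and genes of fat metabolism were among those that differed between the genotypes. Nr1d1, Ciart and Dbp, clock genes whose CON means were highest at CT7, were lower in MUT, and Asb12, Pnpla3 and Lep, the leptin gene, were higher. In all, 629 of the 15526 genes tested (4.05%) passed an adjusted p of 0.05, 462 higher (2.98%) and 167 lower (1.08%) in MUT. Most differences were small: their median size was 0.36 on the log2 scale (1.28-fold), 68 genes reached 1.5-fold and 8 reached 2-fold. The 3 arrays of one genotype lay wholly above or below those of the other for 621 of the 629, against 3968 of all genes (25.6%). Adjusted p here and below is limma's moderated test with Benjamini-Hochberg adjustment over all genes tested, on a model of all 24 arrays. Leaving out single arrays cut the count, to 273 without CON replicate 2, 191 without CON replicate 3, 241 without MUT replicate 2 and 227 without MUT replicate 3.

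The share of higher calls followed the signal level, and this bears on every count by direction. CON replicates 2 and 3 had narrow signal distributions, with an SD over all probe sets of 1.585 and 1.591, ranks 2 and 3 of 24 from the narrowest, against 1.625 in CON replicate 1 and 1.622 to 1.629 in MUT. The group difference of 0.025 was not beyond the spread of the arrays (exact permutation test, two-sided, p = 0.3, where 0.1 is the smallest p that 3 against 3 allows). Among the 3 dimmest of 10 bins of signal level, 19 genes were called higher and 56 lower, with a median difference of -0.053. In the 3 brightest bins 320 were higher and 63 lower, with a median difference of 0.075. Higher calls made up 73.4% of all calls as deposited, 58% after quantile normalization, 54.9% after cyclic loess and 44.7% with the arrays scaled to the same interquartile range. After these 3 rescalings 464, 390 and 391 of the 629 genes were still called. With CON replicates 2 and 3 both left out, 55 genes were called, 19 higher and 36 lower, and 46 of them were among the 629. That fit assumes that the lone CON array varies like the other groups. Leaving out the other pairs left 18 genes (CON replicates 1 and 2) and 36 (replicates 1 and 3).

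**Figure D1:**
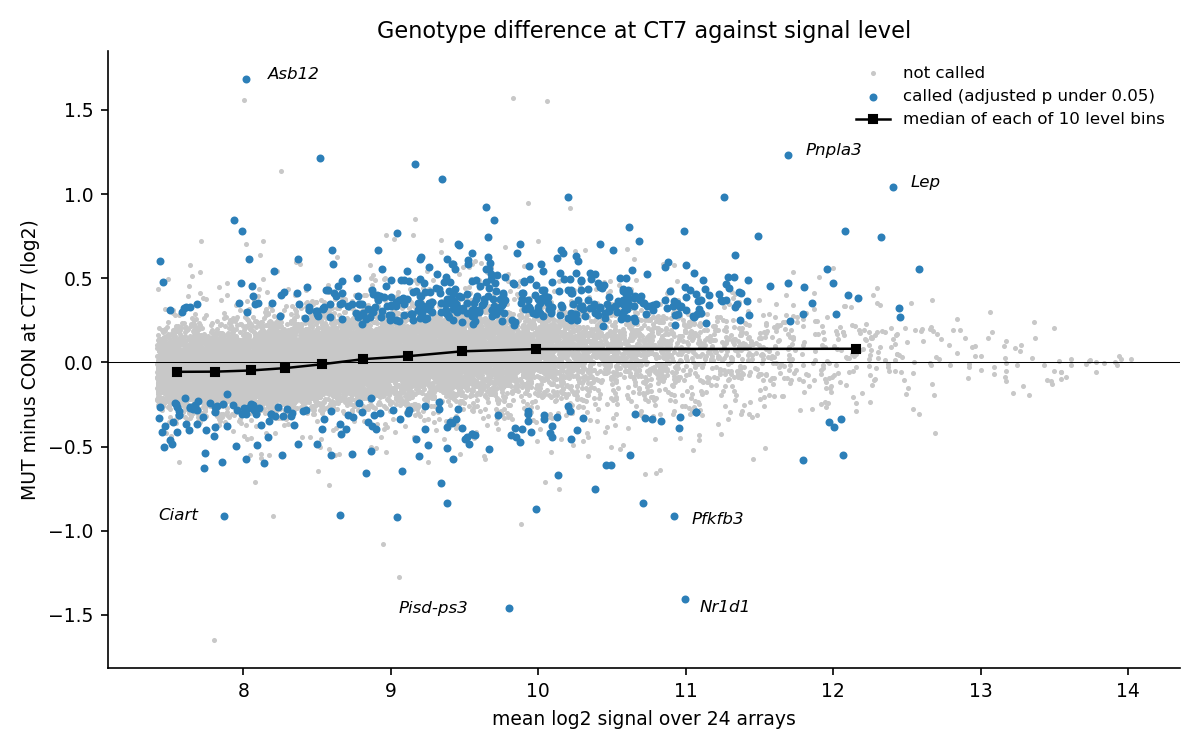
Difference between MUT and CON at CT7 (vertical axis, log2) of each tested gene against its mean log2 signal over 24 arrays (horizontal axis). Called genes are blue, the others grey, and black squares give the median of each of 10 level bins, which runs from -0.056 in the dimmest bin to 0.081 in the brightest.

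The driver and target genes were read first. Arntl was at a log2 signal of 8.09, 7.96 and 8.14 in CON replicates 1 to 3 and at 8.25, 7.92 and 8.39 in MUT. The groups overlapped, and the difference was 0.12 ± 0.14 (SE), adjusted p = 0.668. Which part of the transcript the probe set covers was not analysed here, so this level does not test the deletion. Syt10, a synaptotagmin gene, lay at 7.38, 7.62 and 7.53 in CON and 7.64, 7.41 and 7.42 in MUT, and the groups overlapped (difference -0.02, adjusted p = 0.922).

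Sequences of the 250 bases before the start site are shown for the called clock repressors Ciart and Nr1d1, for the output factor Dbp, and for a pair of transporter genes whose windows hold clock motifs. They come from RefSeq on GRCm38.p6 and read 5′ to 3′ on the gene's strand, and capitals mark the E-box (CACGTG) or the D-box (TTATGNAA), searched on both strands. The windows are Ciart chr3:95882229-95882478 (minus strand), Nr1d1 chr11:98775378-98775627 (minus), Dbp chr7:45704997-45705246 (plus), Slc43a1 chr2:84840073-84840322 (plus) and Slc16a12 chr19:34747329-34747578 (minus).
Ciart: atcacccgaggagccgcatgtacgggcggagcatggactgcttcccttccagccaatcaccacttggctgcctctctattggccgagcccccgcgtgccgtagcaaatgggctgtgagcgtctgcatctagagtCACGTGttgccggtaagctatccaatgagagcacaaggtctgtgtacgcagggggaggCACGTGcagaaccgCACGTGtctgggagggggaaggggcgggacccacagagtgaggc
Nr1d1: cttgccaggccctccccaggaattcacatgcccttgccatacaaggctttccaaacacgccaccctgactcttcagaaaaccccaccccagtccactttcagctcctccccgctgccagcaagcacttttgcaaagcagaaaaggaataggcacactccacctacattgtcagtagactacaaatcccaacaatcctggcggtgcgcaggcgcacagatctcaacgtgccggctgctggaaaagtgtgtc
Dbp: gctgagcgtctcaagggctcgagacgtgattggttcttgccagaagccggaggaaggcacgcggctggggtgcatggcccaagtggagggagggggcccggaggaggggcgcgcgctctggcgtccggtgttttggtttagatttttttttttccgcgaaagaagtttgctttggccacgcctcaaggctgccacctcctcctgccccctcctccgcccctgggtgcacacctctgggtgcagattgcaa
Slc43a1: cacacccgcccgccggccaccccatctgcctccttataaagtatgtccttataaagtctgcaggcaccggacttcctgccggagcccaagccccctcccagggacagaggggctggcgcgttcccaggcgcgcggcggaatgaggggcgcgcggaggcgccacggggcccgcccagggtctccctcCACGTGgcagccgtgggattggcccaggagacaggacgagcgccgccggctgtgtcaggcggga
Slc16a12: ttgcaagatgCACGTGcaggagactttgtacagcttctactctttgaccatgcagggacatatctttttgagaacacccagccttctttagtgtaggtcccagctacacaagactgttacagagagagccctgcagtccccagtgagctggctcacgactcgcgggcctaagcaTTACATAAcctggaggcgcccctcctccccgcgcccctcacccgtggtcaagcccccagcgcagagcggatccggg

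Ciart holds 3 E-boxes, which start 116, 58 and 44 bases before the start site. Slc43a1 holds 1 E-box, 64 bases before the start. Slc16a12 holds 1 E-box at 240 and 1 D-box at 76 bases before it, the latter read on the opposite strand. Nr1d1 and Dbp hold neither motif in these windows. Of the 20 clock genes tested, 18 have such a window, 24 windows in all since some have several start sites. The E-box was found in 7 of the 24 windows (29.2%), of 6 genes, and the D-box in 2 (8.33%), of Per1 and Per3. Over all 32851 windows of this length the E-box occurs in 6.02%, the D-box in 3.07% and the RORE in 0.332%, and the RORE was in none of the 24. Outside the clock, the pair of transporter genes was shown because their windows hold motifs. Of the other non-clock genes whose windows were searched, Pfkfb3 holds an E-box and Gde1 a D-box. Asb12, Pnpla3, Tuba1b, Tuba1a, Fam20c, Pcbd1, Lep, Ehd3, Gatc, Slc5a6, Rbp7 and Adcy5 hold none of the motifs. A match describes letters and not binding.

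Of the 20 tested clock genes, 6 were called (30%, against 4.05% of all genes), 3 lower and 3 higher. All 9 tested repressors had a fitted difference below 0, with a median of -0.49 against 0.0 over all genes, but only Nr1d1 and Ciart passed the test. Of the 4 activators Clock was called, higher. Of the 7 outputs Dbp was lower, and Nfil3 and Wee1 were higher. The arrays of the genotypes did not overlap for 11 of the 20, against 25.6% of all genes.

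Among the repressors, Nr1d1 encodes REV-ERB alpha, the nuclear receptor that silences Arntl. It was at 12.38, 12.06 and 12.25 in CON and 10.80, 10.90 and 10.78 in MUT. Every MUT array lay more than a log2 unit below every CON array, and the difference was -1.40 ± 0.17, or 2.65-fold (adjusted p = 0.000137). Ciart, the repressor also known as CHRONO, stood at 8.88, 8.70 and 8.76 in CON and 7.75, 7.92 and 7.92 in MUT. The groups were again apart, with a difference of -0.91 ± 0.07 (1.88-fold, adjusted p = 1.34e-07), and its 3 E-boxes are in the sequence above. Both calls held with each array left out and without CON replicates 2 and 3.

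Per1, a period gene, was at 11.23, 11.31 and 11.33 in CON and 10.76, 11.06 and 10.57 in MUT. The groups did not overlap, yet the difference of -0.49 ± 0.14 missed the threshold (adjusted p = 0.0521). Nr1d2, which encodes REV-ERB beta, read 10.40, 10.31 and 10.39 in CON and 9.78, 10.01 and 9.67 in MUT, apart in every array but with an adjusted p of 0.103. The same held for Bhlhe41, the repressor DEC2, at 9.48, 8.96 and 9.07 in CON and 8.54, 8.49 and 8.84 in MUT (adjusted p = 0.19). Its relative Bhlhe40 overlapped between genotypes, with a difference of -0.05. So did Per3 (-0.10) and the cryptochromes Cry1 (-0.11) and Cry2 (-0.08).

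Among the activators, Clock encodes the partner of BMAL1. It was at 10.58, 10.30 and 10.35 in CON and 10.74, 10.96 and 10.88 in MUT, with no overlap, and was higher by 0.45 ± 0.09 (1.36-fold, adjusted p = 0.00672). The call held with each array left out, but not without CON replicates 2 and 3 (0.27, adjusted p = 0.322). Npas2, which can replace Clock as the partner, overlapped (difference -0.07, adjusted p = 0.841). Rora, a receptor that activates through the RORE, was apart between the genotypes at 9.25 to 9.34 in CON and 9.38 to 9.57 in MUT, with a difference of 0.17 and an adjusted p of 0.253.

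Among the outputs, Dbp encodes an activator that binds the D-box. It was at 10.61, 10.62 and 10.73 in CON and 9.78, 9.95 and 9.74 in MUT. No arrays overlapped, and the difference was -0.83 ± 0.17 (1.78-fold, adjusted p = 0.00839), called with each array left out. Without CON replicates 2 and 3 the difference was of like size, -0.79, and not called (adjusted p = 0.173). Nfil3, which encodes the repressor at the same motif, was at 8.22, 8.47 and 8.39 in CON and 8.90, 8.72 and 8.67 in MUT, higher by 0.40 ± 0.10 (adjusted p = 0.0281). So Dbp, 1 activator of the D-box, was lower and the repressor Nfil3 higher. However, the Nfil3 call was lost when any array but CON replicate 2 was left out, at adjusted p from 0.0505 to 0.0899. Wee1, a kinase that holds back cell division, was at 8.29, 8.32 and 8.12 in CON and 8.59, 8.99 and 8.78 in MUT, higher by 0.55 ± 0.13 (adjusted p = 0.0183). The Wee1 call was lost without CON replicate 3 (adjusted p = 0.0942), MUT replicate 2 (0.114) or MUT replicate 3 (0.0615). Tef and Hlf, relatives of Dbp, were not called, with differences of -0.08 and -0.11. Nor were Usp2, a deubiquitinase (0.06), and Tspan4, a tetraspanin (-0.11).

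**Figure D2:**
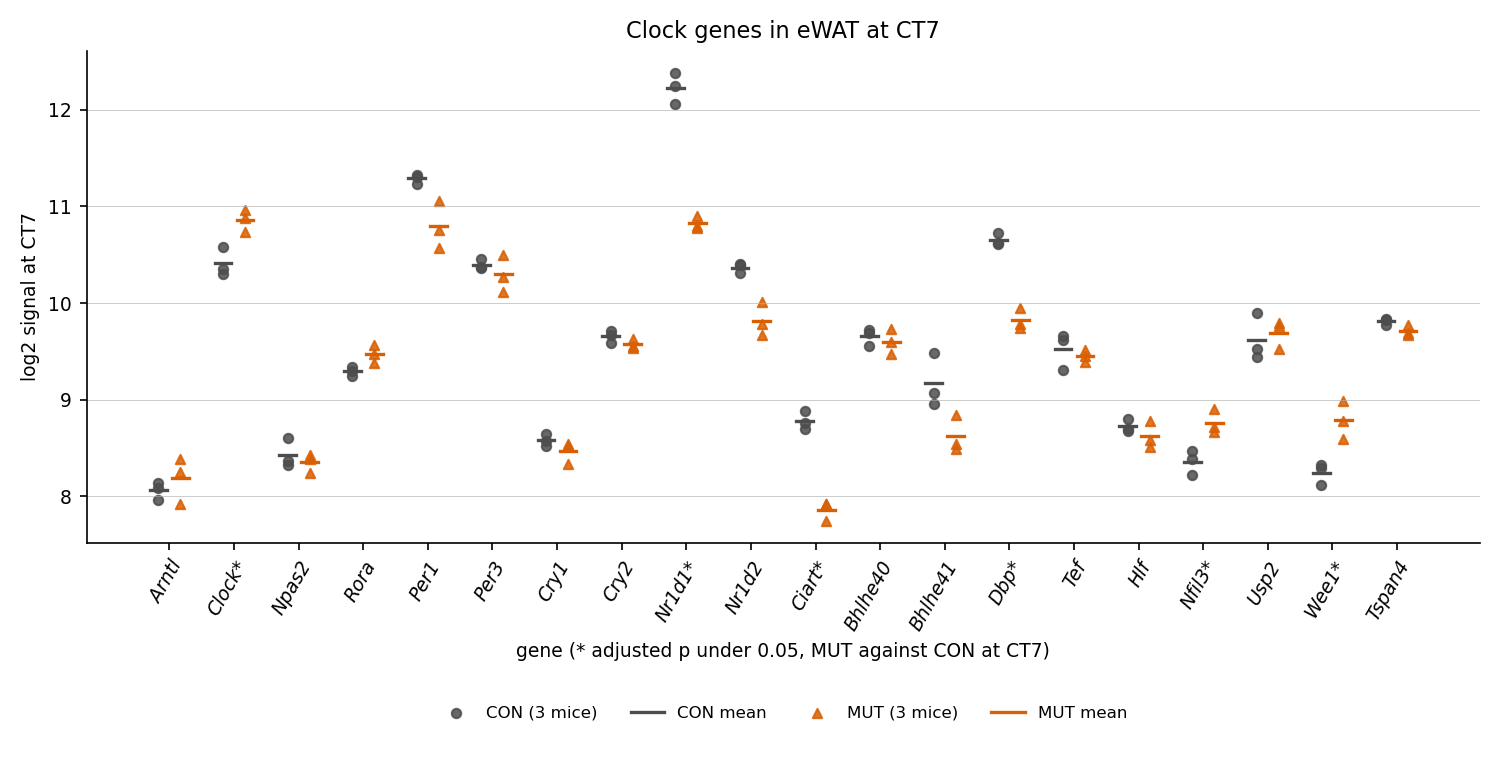
Log2 signal at CT7 (vertical axis) of the 20 tested clock genes (horizontal axis), activators first, then repressors, then outputs. Grey circles are the 3 CON mice, orange triangles the 3 MUT mice, bars the means and stars genes with an adjusted p under 0.05, and Nr1d1 shows the widest gap.

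The MUT levels at CT7 were also set beside CON at the other times. By the nearest CON mean, 10 of the 20 clock genes in MUT at CT7 lay nearest CON at CT13, 6 nearest CT7, 3 nearest CT1 and 1 nearest CT19. Some of the 10 were near ties: CON at CT7 and CT13 was at 8.43 and 8.43 for Npas2, and at 8.73 and 8.71 for Hlf. How all genes divide in this way was not analysed here, so these counts have no background share. Ciart was at 7.62, 8.78, 7.79 and 7.72 in CON at CT1, CT7, CT13 and CT19, a peak at CT7 alone, and at 7.86 in MUT at CT7, off that peak. Dbp ran through 9.03, 10.66, 9.63 and 8.53 in CON, with 9.82 in MUT at CT7, close to the CT13 mean. Nr1d1 ran through 12.04, 12.23, 10.06 and 9.42, and 10.83 in MUT at CT7 lay between the CON means of CT7 and CT13.

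None of the 20 clock genes was called between MUT at CT7 and CON at CT13 (adjusted p from 0.0715 for Nr1d1 to 0.929). Over all genes limma called 0 in that comparison (0.0%), with 2969 at an unadjusted p under 0.05 and a smallest adjusted p of 0.0574. Against CON at CT1 it called 43 (0.277%), 23 higher (0.148%) and 20 lower (0.129%), and against CT19 33 (0.213%), 14 higher (0.0902%) and 19 lower (0.122%). The count of 0 did not mark the closest match, since the median absolute difference over all genes was 0.102 for CON CT13, 0.096 for CT7, 0.077 for CT1 and 0.073 for CT19. It also moved with the processing, to 40 genes after quantile normalization, 183 with equal interquartile ranges, 72 without MUT replicate 1 and 27 without CON CT13 replicate 3. By SD over all probe sets, the 3 CON CT13 arrays ranked 1, 4 and 5 (tied) of 24 from the narrowest. Over the tested genes they ranked 1, 4 and 8. These comparisons share the MUT arrays at CT7, so their counts are not independent.

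**Figure D3:**
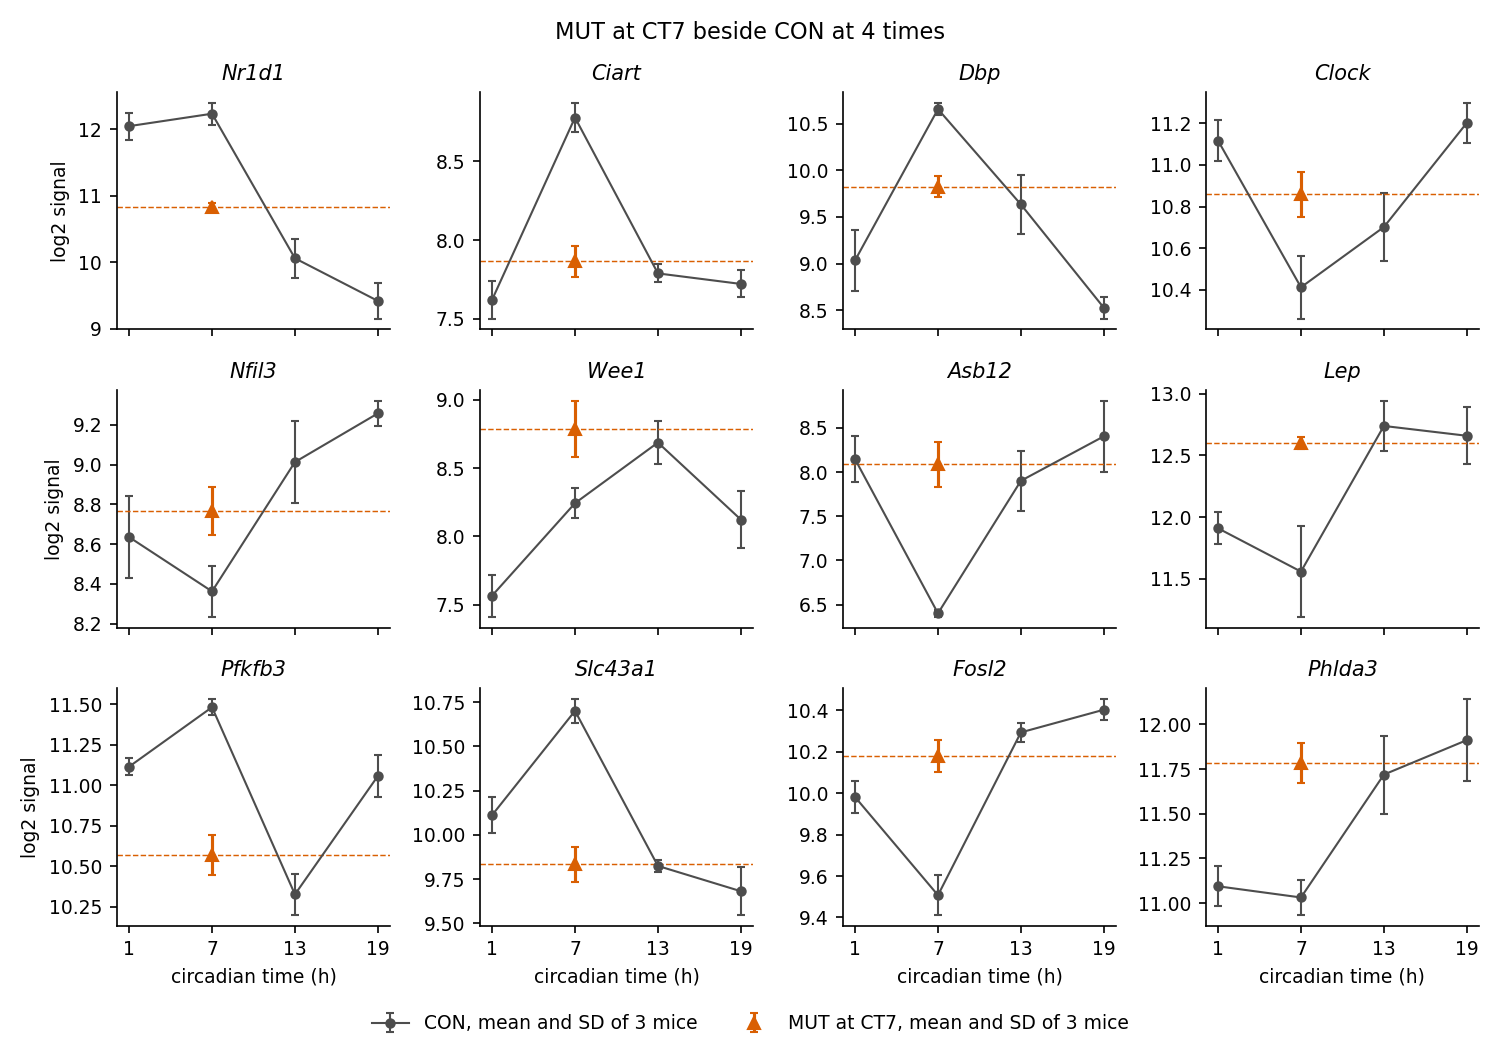
Log2 signal (vertical axes, each gene on its own scale) of 12 genes against circadian time in hours. Grey circles give the CON mean and SD of 3 mice at 4 times, the orange triangle and dashed line the MUT mean at CT7, and Ciart in MUT (7.86) lies near the CON levels of every time but CT7.

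Outside the clock, the largest differences at CT7 were taken as the 12 highest and 12 lowest among called genes whose arrays did not overlap. All 24 were still called after quantile normalization and cyclic loess. Without CON replicates 2 and 3, 3 of the 12 highest (Asb12, Lep and Gnpnat1) and 6 of the 12 lowest were still called. Of the 15 that were not, 13 had a difference within 1 SE of the value with all arrays, and the exceptions were Tuba1b (0.65) and Ehd3 (0.51). Nr1d1, Ciart and Dbp were among the 12 lowest.

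Asb12, a gene of an ankyrin and SOCS box protein family that directs proteins to degradation, had the highest difference. It was at 6.40, 6.44 and 6.36 in CON and 8.17, 7.80 and 8.28 in MUT, 1.68 ± 0.21 higher (3.21-fold, adjusted p = 0.000142). The CON values lay under the signal level of 7.416 below which genes were left out, where a fold change is compressed. CON at the other times was at 8.14 (CT1), 7.90 (CT13) and 8.40 (CT19), so the CON arrays at CT7 were the ones that stood low.

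A lipid droplet gene and hormone genes of fat were among the higher genes. Pnpla3, a lipid droplet protein whose gene responds to feeding and insulin, was at 10.69, 10.75 and 10.31 in CON and 11.87, 11.67 and 11.92 in MUT. It was 1.23 ± 0.19 higher (2.35-fold, adjusted p = 0.00104), with the groups well apart. Lep was at 11.34, 11.98 and 11.36 in CON and 12.66, 12.58 and 12.56 in MUT. The MUT arrays were tight and above all CON arrays, of which replicate 2 was the highest, and the difference was 1.04 ± 0.14 (2.06-fold, adjusted p = 0.00026). Over all the fits run, the Lep difference ranged from 0.62 to 1.26. Nampt, which makes a precursor of NAD and is also secreted by fat, was at 10.05, 10.07 and 9.96 in CON and 10.56, 10.54 and 10.57 in MUT (0.53 ± 0.11, adjusted p = 0.00866). Lep and Nampt were the 2 called of 8 tested adipokine genes, where 4.05% of all genes were called. The other 6 were not called, among them Rbp4 (0.16, adjusted p = 0.182) and Nrg4 (-0.10, 0.541).

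Several higher genes act in the matrix, the cytoskeleton or cell membranes. Adamts5, a protease that cuts proteoglycans, was at 10.28, 10.48 and 10.13 in CON and 11.36, 11.41 and 11.06 in MUT (0.98 ± 0.19, adjusted p = 0.00641). Lox, which crosslinks collagen and elastin, was at 8.97, 8.77 and 8.91 in CON and 9.59, 9.45 and 9.36 in MUT (0.58 ± 0.10, adjusted p = 0.00202). These were the 2 called of 13 extracellular matrix genes, against 4.05% of all genes. The list's median difference was 0.11 at a median level percentile of 90.7, and the 3 brightest bins of all genes had a median of 0.075. Fam20c, a kinase of the secretory pathway, was at 8.29, 8.29 and 8.69 in CON and 9.60, 9.46 and 9.74 in MUT (1.18 ± 0.27, adjusted p = 0.0158). Without CON replicate 2 or MUT replicate 3 the Fam20c call was lost (adjusted p = 0.0676 and 0.0694). Tuba1b, an alpha tubulin, was at 8.31, 7.14 and 7.80 in CON and 8.85, 9.13 and 8.90 in MUT (1.21 ± 0.24, adjusted p = 0.00672). Tuba1a was at 9.34, 9.34 and 9.27 in CON and 10.48, 10.25 and 10.15 in MUT (0.98 ± 0.22, adjusted p = 0.0138, and 0.0592 without CON replicate 3). The sequences of these tubulins are nearly alike, so their probes may not separate them, and the other 6 tested tubulins were not called. Ehd3, which works in membrane recycling, was at 9.06, 8.34 and 8.78 in CON and 9.60, 9.56 and 9.56 in MUT (0.85 ± 0.19, adjusted p = 0.0153). Its call was lost without CON replicate 2 (adjusted p = 0.099), CON replicate 3 (0.0522), MUT replicate 2 (0.0519) or MUT replicate 3 (0.0518).

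The remaining higher genes encode transporters and enzymes. Slc16a12, a membrane transporter that carries creatine, was at 9.27, 9.10 and 9.06 in CON and 10, 9.94 and 10.25 in MUT (0.92 ± 0.14, 1.90-fold, adjusted p = 0.000642). Gatc, a subunit of the enzyme that loads glutamine onto mitochondrial tRNA, was at 9.99, 9.72 and 10.01 in CON and 10.64, 10.72 and 10.77 in MUT (0.80 ± 0.13, adjusted p = 0.00121). Pcbd1, which recycles the pterin cofactor, was at 8.19, 8.11 and 8.61 in CON and 9.47, 9.47 and 9.24 in MUT (1.09 ± 0.23, adjusted p = 0.00957). The groups did not overlap for these 3 genes, and their calls held with each array left out. Gnpnat1, of the hexosamine pathway, was at 6.85, 7.57 and 7.41 in CON and 8.05, 8.40 and 7.92 in MUT (0.85 ± 0.19, adjusted p = 0.0132). Its CON mean of 7.28 also lay under the filter level. The call was lost without CON replicate 1 (adjusted p = 0.0571) or MUT replicate 2 (0.0814).

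Among the lower genes were regulators of glucose use and carriers of nutrients. Pfkfb3, the enzyme that sets the level of the main activator of glycolysis, was at 11.54, 11.47 and 11.44 in CON and 10.62, 10.66 and 10.43 in MUT. It was lower in every MUT array, by 0.91 on the fitted scale (MUT minus CON -0.91 ± 0.10, 1.88-fold, adjusted p = 1.09e-05), and was the only one called of 17 insulin and glucose genes. Slc5a6, the carrier of biotin and pantothenate, was at 9.92, 10.14 and 10.17 in CON and 9.15, 9.05 and 9.28 in MUT (-0.92 ± 0.12, adjusted p = 0.000147). Slc43a1, a carrier of large neutral amino acids, was at 10.76, 10.63 and 10.72 in CON and 9.86, 9.73 and 9.92 in MUT (-0.87 ± 0.13, adjusted p = 0.000666). These 3 calls held with each array left out. Without CON replicates 2 and 3 the differences were -0.96 (Pfkfb3), -0.76 (Slc5a6) and -0.92 (Slc43a1). Rbp7, a retinoid-binding protein, was at 9.41, 8.99 and 9.44 in CON and 8.21, 8.46 and 8.44 in MUT (-0.91 ± 0.19, adjusted p = 0.0102, and 0.0592 without CON replicate 3).

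The other lower genes act in signalling, lipid cleavage and detoxification. Gde1, a glycerophosphodiesterase, was at 11.02, 10.96 and 10.79 in CON and 10.10, 10.15 and 10.26 in MUT (-0.75 ± 0.11, adjusted p = 0.000711). Rasd1, a Ras-like protein induced by dexamethasone, was at 11.42, 11.66 and 11.41 in CON and 10.78, 10.78 and 10.42 in MUT (-0.83 ± 0.20, adjusted p = 0.0188). Adcy5, an adenylyl cyclase, was at 10.52, 10.24 and 10.51 in CON and 9.52, 9.83 and 9.91 in MUT (-0.67 ± 0.16, adjusted p = 0.0206). No arrays overlapped for these 3 genes. Gstt2, a glutathione transferase, was at 10.13, 9.96 and 9.97 in CON and 9.14, 9.40 and 9.36 in MUT (-0.72 ± 0.17, adjusted p = 0.0178). Pisd-ps3 is listed as a pseudogene, so its probes may also read related transcripts. It was at 11.09, 11.04 and 10.42 in CON and 9.15, 9.04 and 9.98 in MUT (-1.46 ± 0.34, adjusted p = 0.018), with CON replicate 3 and MUT replicate 3 nearest each other. The Gde1 call held with each array left out, and the other 4 did not. Rasd1 was lost without CON replicate 2, CON replicate 3 or MUT replicate 3 (adjusted p = 0.0902, 0.0583 and 0.103). Adcy5 was lost without CON replicate 1, CON replicate 3, MUT replicate 1 or MUT replicate 2 (adjusted p = 0.0573, 0.0879, 0.0764 and 0.0535). Gstt2 was lost without CON replicate 1, CON replicate 3, MUT replicate 1 or MUT replicate 3 (adjusted p = 0.054, 0.0592, 0.0594 and 0.0518). Pisd-ps3 was lost without CON replicate 1, CON replicate 2, MUT replicate 1 or MUT replicate 2 (adjusted p = 0.0553, 0.0797, 0.0554 and 0.0981).

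**Figure D4:**
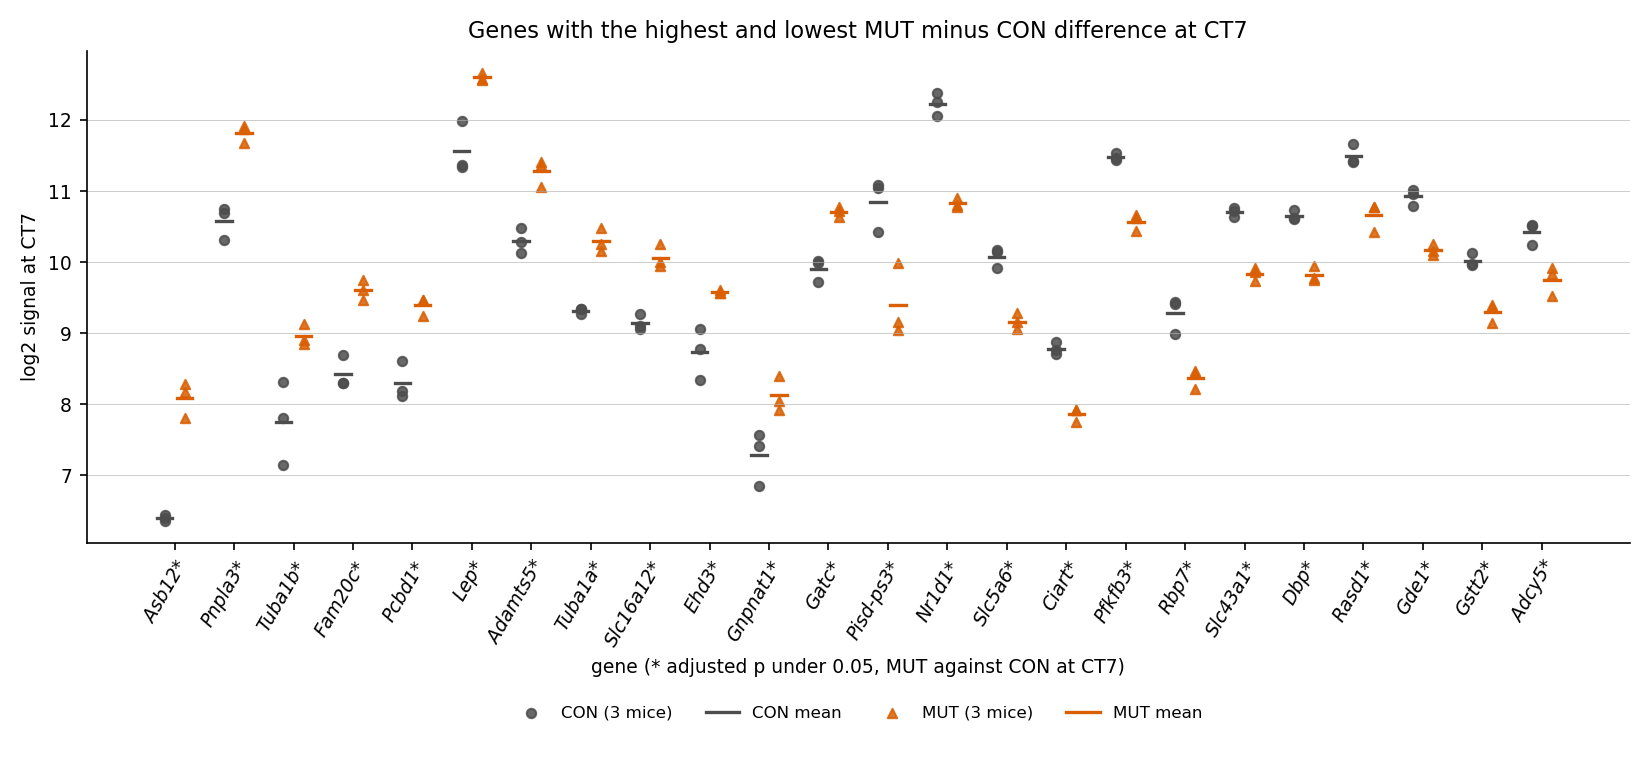
Log2 signal at CT7 (vertical axis) of the 12 genes with the highest and the 12 with the lowest difference (horizontal axis). Grey circles are CON mice, orange triangles MUT mice and bars the means of 3, and the genotypes do not overlap for any of the 24, which the choice of genes required.

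Beside these single genes, none of 45 tested genes that make, store and break down fat was called at CT7. Of all genes, 4.05% were called. The 45 genes were 13 fatty acid synthesis genes (median difference -0.06), 12 triglyceride assembly genes (-0.10), 12 lipolysis and droplet genes (-0.06) and 8 genes of the lipoprotein lipase system (0.03), and the median over all genes was 0.0. These lists are bright, with median level percentiles from 96.9 to 99.3. In the brightest of the 10 level bins, 143 of 1553 genes were called higher and 21 lower. Whether a count of 0 sets the lists apart from genes of like level was not tested. Dgat2, which completes triglyceride synthesis, was at 13.35 ± 0.05 (SD, n = 3) in CON and 13.55 ± 0.06 in MUT (adjusted p = 0.162), and Dgat1 at 12.53 ± 0.01 and 12.29 ± 0.08 (adjusted p = 0.267). Both pairs of groups were apart, in opposite directions. Angptl4, an inhibitor of lipoprotein lipase, was at 11.44 ± 0.03 and 11.10 ± 0.27 (adjusted p = 0.155). Plin1, the droplet coat protein of fat cells, was at 12.61 ± 0.08 and 12.79 ± 0.04 (adjusted p = 0.0991).

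Of 9 lipogenic regulators Pnpla3 alone was called, and Mid1ip1, which activates acetyl-CoA carboxylase, had a difference of 0.49 ± 0.18 (adjusted p = 0.131). Of 14 fatty acid oxidation genes Ppard, a nuclear receptor of that pathway, was called higher by 0.32 ± 0.07 (adjusted p = 0.0167), with an adjusted p of 0.0737 after quantile normalization. The mitochondrial enzyme Acadl was at -0.31 (adjusted p = 0.0618). Irs2, an adaptor of the insulin receptor, was at -0.46 (adjusted p = 0.118) and Pik3r1, a subunit of its kinase partner, at 0.40 (adjusted p = 0.113). The Ppard call was also lost without CON replicate 2 (0.0557), CON replicate 3 (0.0705) or MUT replicate 1 (0.0693).

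No cholesterol synthesis gene was called. The list had a median level percentile of 70.2, and its direction was not tested against genes of like level. Of 12 tested, 10 had a fitted difference above 0, with a median of 0.18, and the lowest adjusted p was 0.0533, for the regulator Srebf2 (9.51 ± 0.06 in CON and 9.72 ± 0.05 in MUT). Hmgcs1, an early enzyme of the pathway, stood at 0.39 ± 0.14 (adjusted p = 0.106).

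Of 12 adipogenic factors, 2 were called, both lower, against 1.08% of all genes called lower. Klf15, a factor that glucocorticoids induce, was at 10.36, 10.11 and 10.17 in CON and 9.75, 9.85 and 9.74 in MUT (-0.43 ± 0.10, adjusted p = 0.017). Cebpa, a master factor of the fat cell, was at 12.37, 12.30 and 12.29 in CON and 12.02, 12.08 and 11.86 in MUT (-0.33 ± 0.09, adjusted p = 0.029). The groups were apart for both genes. Single arrays ended both calls: Klf15 without CON replicate 1 (0.0621), CON replicate 3 (0.0513) or MUT replicate 3 (0.0693), and Cebpa without CON replicate 1 (0.0723), 2 (0.0797) or 3 (0.0741) or MUT replicate 3 (0.154).

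The 14 glucocorticoid response genes gave 1 call in each direction, where 2.98% of all genes were called higher and 1.08% lower. Klf15 was the lower one, and Tsc22d3, a mediator of glucocorticoid action also known as GILZ, was higher by 0.30 ± 0.08 (adjusted p = 0.0327). Neither Mt2, a metallothionein (0.49, adjusted p = 0.0503), nor Sgk1, a kinase (-0.50, adjusted p = 0.0504), passed. The 2 calls of this list thus lay on opposite sides. The call of Tsc22d3 was lost after quantile normalization (adjusted p = 0.107) and in 5 of the 6 fits without a single array, the exception being MUT replicate 3 (adjusted p from 0.0544 without MUT replicate 1 to 0.186 without MUT replicate 2).

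In the stress and housekeeping lists 4 of 117 tested genes were called (3.42%), near the 4.05% of all genes. The median level percentiles of these lists ran from 37.3 to 96.2, and the 2 shares were not matched for level. No gene was called of 13 in the unfolded protein response, 13 immediate early genes, 7 interferon response genes, 18 oxidative phosphorylation subunits, 18 cytosolic ribosomal proteins, 6 adrenergic and cAMP genes or 5 cell cycle genes, nor was the cold-inducible Cirbp. Of 10 heat shock genes Hspa8, a constitutive chaperone, was called (0.27, adjusted p = 0.036), and scaling the arrays to the same interquartile range brought its difference to 0.01 (adjusted p = 0.984). Among 17 proteasome subunits, Psma7 (-0.34, adjusted p = 0.0319) and Psmc1 (-0.26, 0.0446) were lower. Of 9 inflammation genes Nfkbia, the inhibitor of NF-kappa B, was lower (-0.29, adjusted p = 0.0324). These 4 calls each ended in at least 3 of the 6 fits without a single array, with adjusted p of up to 0.143 for Hspa8 (without CON replicate 3), 0.154 for Psma7 (MUT replicate 2), 0.174 for Psmc1 (MUT replicate 2) and 0.139 for Nfkbia (MUT replicate 3).

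**Figure D5:**
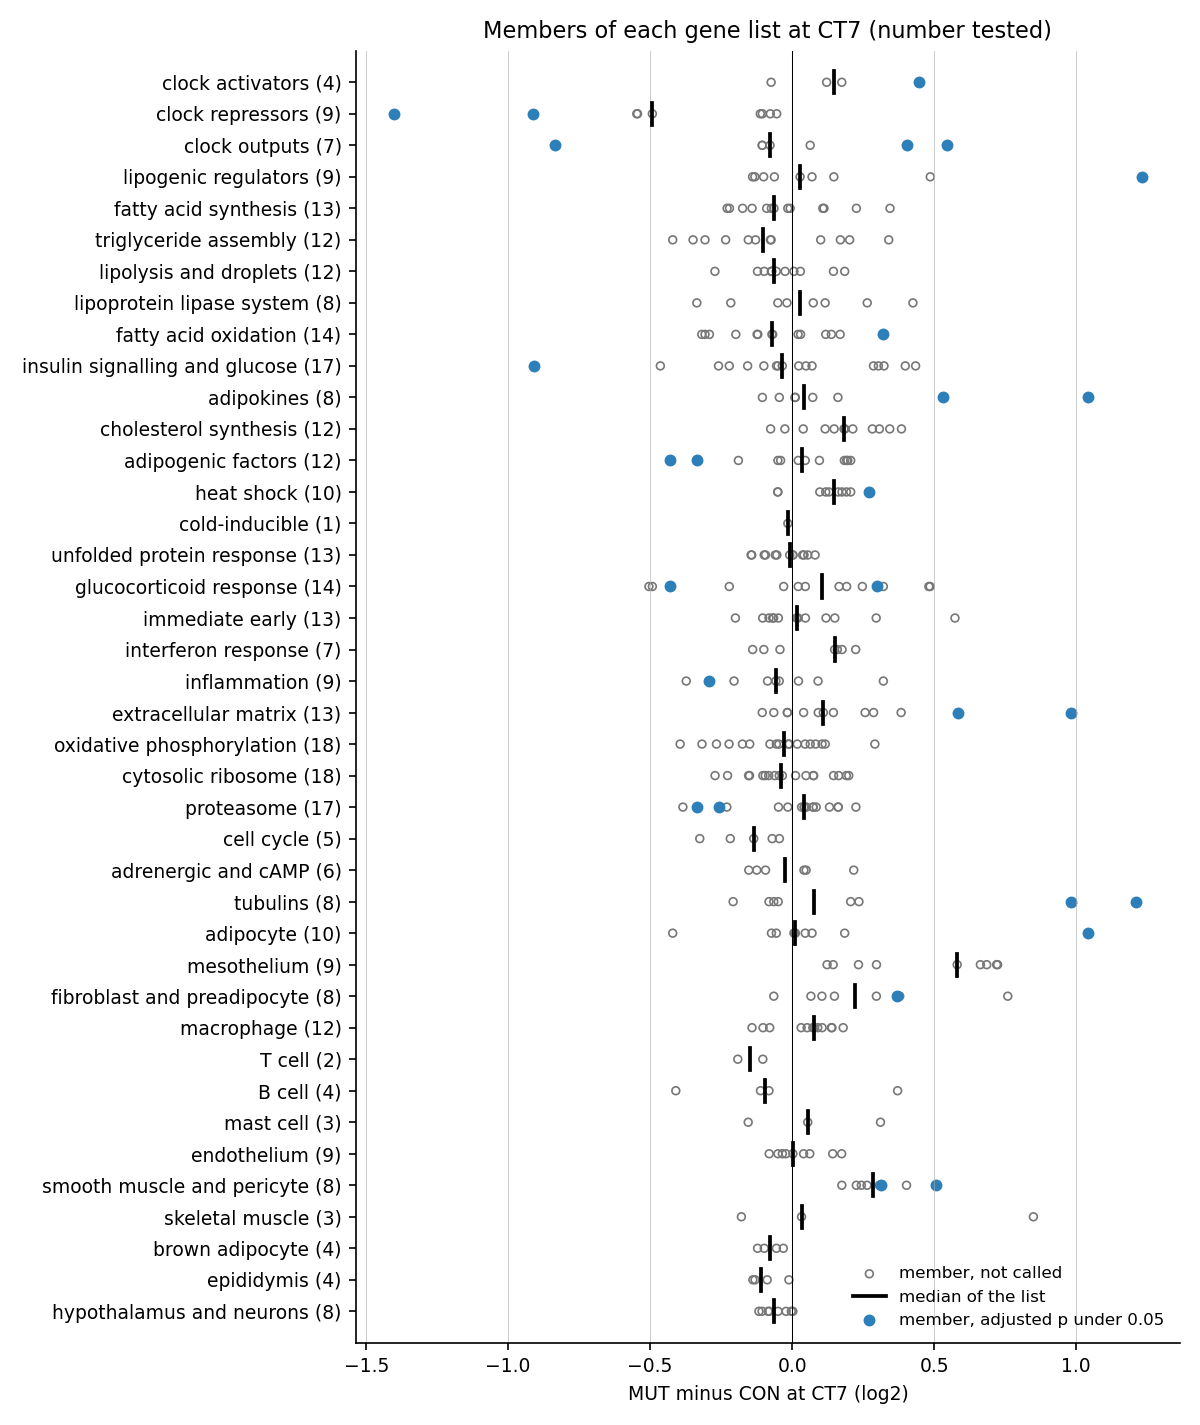
Difference between MUT and CON at CT7 (horizontal axis, log2) of each tested member of 40 gene lists (rows, with the number tested in brackets). Filled blue points passed an adjusted p of 0.05, open points did not, and black bars mark list medians, which lie lowest for the clock repressors (-0.49) and highest for mesothelium markers (0.58).

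Markers of the covering cells of the fat pad differed between arrays. All 9 mesothelium markers had fitted differences above 0 (median 0.58), and none was called. Their score, the median deviation from each gene's mean over 24 arrays, was -0.85, -0.84 and -0.78 in CON and -0.72, -0.16 and 0.21 in MUT. CON was tight and low, while MUT replicates 2 and 3 were well above replicate 1 (exact permutation test, two-sided, p = 0.1, adjusted over 12 lists 0.3). Upk1b, a uroplakin of these cells, was at 9.31, 9.41 and 9.46 in CON and 9.49, 10.21 and 10.46 in MUT, and the CON signals of Lrrn4 (7.17 to 7.28) and Muc16 (6.57 to 6.85) lay under the filter level. In such bulk tissue, fewer cells of a type and less RNA per cell cannot be told apart.

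Stromal and vessel wall markers stood the same way. Smooth muscle and pericyte markers scored -0.14, -0.14 and -0.18 in CON and 0.28, 0.03 and 0.03 in MUT (exact permutation p = 0.1, the smallest possible, adjusted 0.3). All 8 had fitted differences above 0 (median 0.29, against 0.0 over all genes). Acta2 (0.51, adjusted p = 0.0325) and Des (0.31, 0.0391) were called, where 2.98% of all genes were called higher. Fibroblast and preadipocyte markers scored -0.41, -0.32 and -0.30 in CON and -0.18, -0.14 and 0.02 in MUT (exact permutation p = 0.1, adjusted 0.3). Of these 8, Cd34 was called (0.37, adjusted p = 0.0382), and Dpp4, a marker of early progenitors, was at 0.76 ± 0.26 (adjusted p = 0.0915). The calls of Acta2, Des and Cd34 were lost after quantile normalization (adjusted p = 0.0533, 0.117 and 0.0567). Without single arrays Acta2 and Cd34 were lost in all 6 fits, at up to 0.133 and 0.18, and Des in all but the one without MUT replicate 3, at up to 0.141.

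Other markers were closer between the genotypes. Adipocyte markers scored -0.02 to 0.03 in CON and 0.01 to 0.06 in MUT, with Lep the only one called of 10. No gene was called of 12 macrophage markers or 9 endothelium markers, nor of the tested T cell, B cell, mast cell, skeletal muscle, brown adipocyte, epididymis or hypothalamus markers. The 4 tested epididymis markers were lower in score, at 0.03 to 0.08 in CON and -0.07 to 0.00 in MUT (exact permutation p = 0.1, adjusted 0.3).

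With the mesothelium score of each array as a covariate, 218 genes were called, 162 higher and 56 lower, of which 175 were among the 629. At CT7 every MUT array scored above every CON array, so a call can be lost through a less precise difference alone. Clock kept its difference of 0.45, while its adjusted p rose from 0.00672 to 0.0276. Of the 24 genes with the largest differences 19 were still called, Lep at 0.91 (adjusted p = 0.00309), Nr1d1 at -1.45 (0.000531) and Asb12 at 1.89 (0.000132) among them. Fam20c (0.91, 0.121), Adamts5 (0.77, 0.0505), Ehd3 (0.54, 0.141), Gnpnat1 (0.70, 0.088) and Rasd1 (-0.51, 0.18) were not. Klf15 (-0.37, 0.103), Cebpa (-0.25, 0.205), Wee1 (0.42, 0.137) and Cd34 (0.17, 0.337) also lost their calls. For these genes the part of the mesothelium markers in the difference was not tested beyond this fit.

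The CT7 difference was also tested against the mean difference between MUT and CON at CT1, CT13 and CT19. Such a call marks a departure from that mean, and the gene can still differ at another single time. At single times limma's test of MUT against CON called 7 genes at CT1 (0.0451%), 5 higher (0.0322%) and 2 lower (0.0129%). At CT13 it called 50 (0.322%), 36 higher (0.232%) and 14 lower (0.0902%), and at CT19 425 (2.74%), 299 higher (1.93%) and 126 lower (0.812%). The test of the CT7 difference less that mean called 36 genes (0.232%), 17 higher (0.109%) and 19 lower (0.122%), of which 35 were also called at CT7. The exception was Ffar2, a receptor for short-chain fatty acids. Of the clock genes, Nr1d1 and Ciart were the 2 called. The count was 15 without CON replicate 1, 59 without CON replicate 2, 16 without CON replicate 3 or MUT replicate 1, and 19 without MUT replicate 3.

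Nr1d1 differed by -0.32, -0.07 and 2.24 at CT1, CT13 and CT19 beside -1.40 at CT7, so that it was far lower in MUT at CT7 and far higher at CT19. Its CT7 difference less the mean of the others was -2.02 ± 0.20 (adjusted p = 5.09e-06). For Ciart the differences were 0.24, -0.05 and -0.13 at CT1, CT13 and CT19 against -0.91 at CT7 (-0.94 ± 0.08, adjusted p = 1.42e-06). Dbp just missed the threshold at -0.89 ± 0.19 (adjusted p = 0.056), and it had -0.91 at CT13 as well.

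Genes of fat metabolism and hormones were also called for a CT7 difference apart from its mean at the other times. Lep differed by 0.74, -0.05 and -0.24 at CT1, CT13 and CT19 against 1.04 at CT7, an excess of 0.90 ± 0.16 (adjusted p = 0.0112). Pnpla3 was at 0.48, 0.66 and -0.90 at those times (excess 1.15 ± 0.22, adjusted p = 0.0219) and Asb12 at 0.15, 0.68 and -0.07 (1.43 ± 0.24, 0.00663). Pfkfb3 was at -0.05, 0.70 and -0.33 (-1.01 ± 0.11, adjusted p = 2.11e-05). At CT1, Lep in MUT thus stood on the same side of CON as at CT7, while Pfkfb3 turned to the opposite side at CT13.

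Fosl2, a subunit of the AP-1 factor, was at 9.51, 9.60 and 9.41 in CON and 10.09, 10.22 and 10.22 in MUT at CT7 (0.67 ± 0.07, adjusted p = 1.06e-05), against 0.24, 0.17 and -0.23 at CT1, CT13 and CT19. Phlda3, a p53 target that restrains AKT, was at 10.95, 11.14 and 11 in CON and 11.89, 11.67 and 11.79 in MUT (0.75 ± 0.11, adjusted p = 0.000939). Trp53inp2, which promotes autophagy, was at 10.45, 10.52 and 10.33 in CON and 11.22, 11.14 and 11.28 in MUT (0.78 ± 0.10, adjusted p = 0.00026). The arrays were apart for these 3 genes, and their calls at CT7 held with each array left out and without CON replicates 2 and 3. Pim3, a kinase, was at 11.11, 10.80 and 10.99 in CON and 10.28, 10.44 and 10.36 in MUT (-0.61 ± 0.10, adjusted p = 0.00169), also kept throughout those fits. Dysf, a membrane repair protein, was at 10.41, 9.87 and 10.12 in CON and 9.71, 9.63 and 9.74 in MUT (-0.44 ± 0.11, adjusted p = 0.0285). Dysf lost its call at CT7 without any single array but CON replicate 2, at adjusted p from 0.0515 (without MUT replicate 1) to 0.113 (without MUT replicate 2).

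Genes close to Arntl, the targeted gene, on chromosome 7 were listed apart. Of the 100 tested genes nearest Arntl in gene order, 50 on either side, 11 were called (11%, against 4.05% of all genes), 6 higher and 5 lower, with a median difference of -0.01. Wee1 and Gde1 were among them. Denn2b was at 8.89, 9 and 8.94 in CON and 9.5, 9.54 and 9.36 in MUT (0.53 ± 0.07, adjusted p = 0.000405). Rexo5 was at 8.85, 8.61 and 8.65 in CON and 7.99, 8.21 and 8.13 in MUT (-0.60 ± 0.11, adjusted p = 0.00471), and Cdr2 at 8.83, 8.56 and 8.69 in CON and 9.18, 9.44 and 9.21 in MUT (0.59 ± 0.12, adjusted p = 0.00957). The genotypes were apart for these 3. Also called were Olfml1 (0.37), Far1 (0.25) and Nucb2 (0.31), higher, and Olfr518 (-0.39), Xylt1 (-0.33) and Gprc5b (-0.31), lower. None of the 11 was called for a CT7 difference apart from its mean at the other times. The lowest adjusted p of that test was 0.051, for Rexo5. Gde1 differed by -0.44, -0.13 and -0.45 at CT1, CT13 and CT19, the same side as at CT7, whereas Wee1 stood at 0.58, -0.53 and -0.20.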

How the data were processed

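RNA of eWAT was extracted with Trizol, biotin-labelled with the GeneChip WT Terminal Labeling Kit and measured on 24 arrays, per the labels' protocols. The values the authors deposited are log2 signals per probe set made with RMA and Affymetrix Expression Console, per the submitters' processing notes; no version or setting is given in the sources used here. The arrays did not share 1 signal distribution. Array medians ran from 7.802 to 7.936, and those at CT7 correlated at 0.9754 to 0.9918. The number of arrays limits the precision. Letters a, b and c of the titles are replicates 1 to 3.

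Of 34390 probe sets, 23521 carried 1 gene symbol, 1814 several and 9055 none. The brightest single-symbol probe set stood for a gene, and only genes with a mean signal at or above the 30th percentile (7.416) were tested. Of the tested genes 15427 matched RefSeq (GRCm38.p6). No detection call was used. A cell-means model of 8 groups of 3 (16 residual degrees of freedom) was fitted with limma 3.58.1 in R 4.3.3 and tested on simulated data, with two-sided moderated tests, Benjamini-Hochberg adjustment over all 15526 genes and a threshold of 0.05. Contrasts were MUT minus CON at CT7, that difference less its mean at the other 3 times, and MUT at CT7 minus CON at the other times. Single values were tested by exact permutation of 3 against 3 arrays. Figures were drawn with matplotlib 3.10.9 under Python 3.11.15.

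Named are all tested clock list members and, among called genes without overlap, the 12 highest and 12 lowest differences. Up to 4 members of each other list by smallest p are also named. So are the 8 highest and 8 lowest genes called for the CT7 difference less its mean at the other times. The called neighbours of Arntl were named after their values were seen. The members, the 27 pathway and 14 marker lists and the tests were chosen with earlier results of these data known. Erythrocyte markers had no probe set of their own that was tested. Per2, Por and Lonrf3 were not analysed here. Alternatives were 4 rescalings, each array left out, CON replicates left out in pairs, the replicate letter as a block, other filters and probe set rules, array weights, trended variance, the CT7 arrays alone and the mesothelium score as a covariate; 2 of the 3 pairs and all for the comparison with CON at CT13 were chosen after seeing the data.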

Additional observations from a re-analysis of the deposited data

Results flagged for a closer look

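The difference between MUT and CON at CT7 departed from its mean at CT1, CT13 and CT19 by limma's test of that interaction for 36 genes, and the 8 highest and 8 lowest departures are given here (log2). Those above 0 were Asb12 (1.43), Pnpla3 (1.15), Slc16a12 (1.02), Lep (0.90), Phlda3 (0.87), Trp53inp2 (0.79), Nampt (0.65) and Fosl2 (0.61). Those below 0 were Nr1d1 (-2.02), Rbp7 (-1.36), Pfkfb3 (-1.01), Ciart (-0.94), Slc43a1 (-0.89), Pim3 (-0.73), Ffar2 (-0.65) and Dysf (-0.65). At CT1, CT13 and CT19 the difference of Slc16a12 was 0.26, 0.05 and -0.61, beside 0.92 at CT7, and that of Rbp7 was 0.31, 0.18 and 0.86, beside -0.91. Trp53inp2 had 0.29, -0.11 and -0.20 at those times, beside 0.78, and Phlda3 0.35, 0.01 and -0.70, beside 0.75.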

How the results depend on the processing

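Limits first. There were 3 mice a group, both comparisons of the genotypes at CT7 rest on the same 3 CON arrays, and the signal level moved with direction. Same-letter deviations at CT7 correlated at -0.13, -0.125 and -0.011, and other-letter ones at -0.029 to 0.126. Taken from means of 3 arrays, these values cannot decide whether the letters pair the mice. With the letter as a replicate block 572 genes were called at CT7. That fit called 28 for the CT7 difference less its mean at the other times and 1 against CON at CT13. At CT7 the 629 calls ranged from 191 to 575 with 1 array left out, and were 55, 18 and 36 with CON replicates 2 and 3, 1 and 2, or 1 and 3 left out, 2727 with array weights, 218 with the mesothelium score and 68 at 1.5-fold or more. The 36 genes particular to CT7 ranged from 15 to 59 with 1 array left out, and were 7 and 3 without CON replicates 1 and 2 or 1 and 3, 85 after quantile normalization, 70 with equal interquartile ranges, 352 with array weights, 112 with the mesothelium score and 19 at 1.5-fold. Against CON at CT13 the 0 calls became 40 (quantile), 24 (cyclic loess), 4 (equal medians), 183 (equal interquartile ranges), 4 without the level filter, 2 with the filter at the 60th percentile, 257 (array weights), 3 (trended variance) and 40 (mesothelium score), and 0 to 72 with 1 array of these groups left out. It was 0 to 6 without 1 and 5 without any pair of the CON CT7 arrays, which enter that comparison only through the shared variance. The other alternatives run, the paired omissions aside, kept counts within 1.5 times, and the cause of these shifts was not tested. Of 45 called genes among those named, 21 kept their call with each array left out and under every other alternative apart from the paired omissions; no called gene changed sign.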
